A study of Homo sapiens with 2 samples.

Results

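Kinesins are motor proteins that use ATP to move along microtubules or to shorten them. Some carry vesicles, organelles and RNA through the cell, some build the mitotic spindle and complete cytokinesis, and some work in cilia. N6-methyladenosine (m6A) is a methylated adenosine placed on messenger RNA mainly by the METTL3 and METTL14 complex, and in mammalian mRNA it is known to gather in long internal exons and near stop codons. The kinesin family genes described here are the gene names of the deposited window table that begin with KIF followed by a digit or by C. They number 43 of 47352 names, and 1 of them, KIF25-AS1, is an antisense RNA rather than a kinesin. For each name the listing with most windows was used, out of 72 listings in all.

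GM12878 cells, B cells of human origin immortalised by Epstein-Barr virus, were grown in RPMI with 15% serum, and the groups share this culture. Their RNA was fragmented and sequenced as 1 immunoprecipitated (IP) library, recovered with an m6A antibody, and as 1 input library, the unselected fragments. With 1 library in each group there is no replicate check, so differences are given with no test, and intervals cover counting error only. The source field of the labels, unlike the organism and cell line fields, reads mouse embryonic stem cells. In the input all 6 B cell markers chosen for the check were measured, with a median coverage of 29.8, and none (0) of 4 pluripotency markers was, with a median of 0.0526. Of 4 T cell markers only CD3E was measured, with 2.40 in the IP and 1.52 in the input.

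Coverage is the mean read depth over a window of 100 nt, scaled by the authors for each library. Windows start every 50 nt along each exon. For the window score, 1 is added to the coverage and to the gene's median coverage, the first is divided by the second within each library, and the log2 ratio of IP to input is taken. A window is thus set against the rest of its own gene. Windows scoring at least 2, or 4-fold, count as enriched, and 2 or more of them in a row form a region. The highest window of a region is its peak. The gene-level score is the highest mean score of 2 consecutive windows. A gene is called measured when its mean input coverage is at least 1. Mean coverage is per length, but coverage often falls in the last window of an exon. Exon 2 of KIF1C, for example, had 11.6, 8.83 and 0.329 in the input. Comparisons of mean coverage between genes thus also depend on exon layout and on uncovered stretches of the listing.

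Mitotic kinesins made up most of the measured family. Of 15 kinesins of mitosis and cytokinesis 14 were measured, and the exception was KIF2B, at 0 in both libraries. Of the 28 other names 9 were measured, and of all 47257 scored names 10756 were. The mitotic group had a median coverage of 5.20 in the IP and 3.69 in the input. The cargo transport group of 14 had 1.18 in the IP and 0.608 in the input, and the cilia group of 9 had 0.509 in the IP and 0.247 in the input. The input median was highest in the mitotic group of these 3. The 4 proliferation markers, among them MKI67, were also all measured, with a median of 12.5 in the input.

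Around their annotated starts, mitotic kinesins held the cell cycle motif CHR in a larger share than the other kinesin names did. Cell cycle promoters are known to carry CCAAT boxes, bound by NF-Y, and the cell cycle genes homology region (CHR), whose core is TTTGAA and which binds the DREAM and MuvB complexes. In a RefSeq window (GRCh38.p14) of 250 bases before to 50 after the annotated start, CCAAT or its reverse complement ATTGG stood in 11 of 15 mitotic genes. It stood in 8 of 20 other kinesin names with a matched window and in 39.7% of all 27305 genes. TTTGAA or its reverse complement TTCAAA stood in 10 of the 15, in 1 of the 20 (KIF5B) and in 18.2% of all genes. Both motifs occurred in 9 of the 15 and in 8.37% of all genes. Only 5 of the other names were both measured and matched to a window, and of these 2 held CCAAT and 1 the CHR. These are matches of letters and not measured binding sites. A name can have several annotated starts, as KIF1B does, and its starts differ in CCAAT matches.

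Below are the last 80 bases before the start for the 4 mitotic genes in which both motifs lie within that stretch. They are shown because the spacing of the motifs can be read from them. Both motifs are in capitals, on whichever strand they match, and each sequence runs 5′ to 3′ along the gene.
KIF11 (chr10:92593050-92593129, plus strand): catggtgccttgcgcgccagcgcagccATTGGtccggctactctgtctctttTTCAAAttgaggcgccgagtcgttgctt
KIF18A (chr11:28108157-28108236, minus strand): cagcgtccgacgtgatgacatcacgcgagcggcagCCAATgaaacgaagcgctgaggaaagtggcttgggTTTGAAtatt
KIF4A (chrX:70290024-70290103, plus strand): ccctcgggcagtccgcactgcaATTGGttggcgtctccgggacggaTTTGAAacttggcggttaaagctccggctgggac
KIF23 (chr15:69414269-69414348, plus strand): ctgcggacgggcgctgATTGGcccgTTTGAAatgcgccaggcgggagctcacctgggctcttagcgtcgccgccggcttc

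In each of the 4 the CCAAT match comes first and the CHR match follows it toward the start, with no shared base. Counting back from the start, the first base of the CCAAT match lies at -53 in KIF11, -45 in KIF18A, -58 in KIF4A and -64 in KIF23. The first base of the CHR match lies at -28, -10, -34 and -55 in the same genes.

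Within the mitotic group the mean coverage spanned a wide range. KIF22, the chromokinesin Kid that pushes chromosome arms toward the equator, had 9.18 in the IP and 11.9 in the input, the highest input of the family. KIF2C, which depolymerises microtubules at centromeres, had 8.20 in the IP and 8.03 in the input. KIF18B, a motor that controls the length of astral microtubules, had 11.5 in the IP and 7.82 in the input. All 3 stood clear of the input minimum, and only KIF18B was higher in the IP by over 1.4-fold. KIFC1, the minus-end motor that bundles spindle poles, had 14.7 in the IP and 7.29 in the input, a ratio of 2.01. KIF11, the motor known as Eg5 that separates the poles, had 4.89 in the IP and 5.36 in the input. The depolymerase KIF2A had 6.08 in the IP and 5.51 in the input, and KIF20A, which brings the Aurora B complex to the midzone, had 6.02 in the IP and 4.71 in the input.

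The remaining mitotic members lay lower in the input. KIF23, the motor of the centralspindlin complex, had 2.99 in the IP and 3.69 in the input. KIF15, a spindle motor that can stand in for KIF11, had 2.44 in the IP and 2.21 in the input. With 1 added to each mean, the log2 ratio of IP to input was -0.23 in KIF23 and 0.099 in KIF15. The median of that ratio in all measured genes was 0.35. KIF14, which acts with citron kinase in cytokinesis, had 6.51 in the IP and 1.72 in the input, and KIF18A, which damps chromosome movements at the plate, had 5.20 in the IP and 1.76 in the input. KIF4B, a single-exon copy of KIF4A, had 1.53 in the IP and 1.096 in the input. Its sequence is close enough to KIF4A that the reads of the pair may be shared, and how such reads were assigned is not given in the sources used here.

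Of the transport kinesins, 6 of 14 were measured. KIF21B, a motor that also limits microtubule growth, had 7.31 in the IP and 5.19 in the input, and its relative KIF21A had 1.24 in the IP and 1.63 in the input. KIF1C had 5.69 in the IP and 4.84 in the input, and KIF5B, a heavy chain of conventional kinesin, had 2.85 in the IP and 3.69 in the input. The brain paralogs KIF5A and KIF5C stood at 0.121 and 0.0348 in the input, and KIF1A, the axonal vesicle motor, at 0.00574. KIF13B had 1.70 in the IP and 1.28 in the input, and KIFC2 had 1.55 in the IP and 1.04 in the input. Of the cilia group only the kinesin-2 partners were measured, KIF3B with 14.7 in the IP and 2.99 in the input, and KIF3A with 0.921 in the IP and 1.03 in the input. Their proteins form a heterodimer, yet the mean IP coverage of KIF3A was the lowest among the 23 measured and that of KIF3B, with KIFC1, the highest.

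The minimum divides genes of nearly equal level. KIF3A at 1.03 and KIFC2 at 1.04 lay just inside it, and KIF24, a kinesin that restrains cilium formation, at 0.978 and KIF1B at 0.951 lay just outside. Of the 20 names below it, KIF24, KIF1B and KIF3C (0.266) had the highest input, and KIF12, KIF26A and KIF2B stood at 0 in the input.

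**Figure D1:**
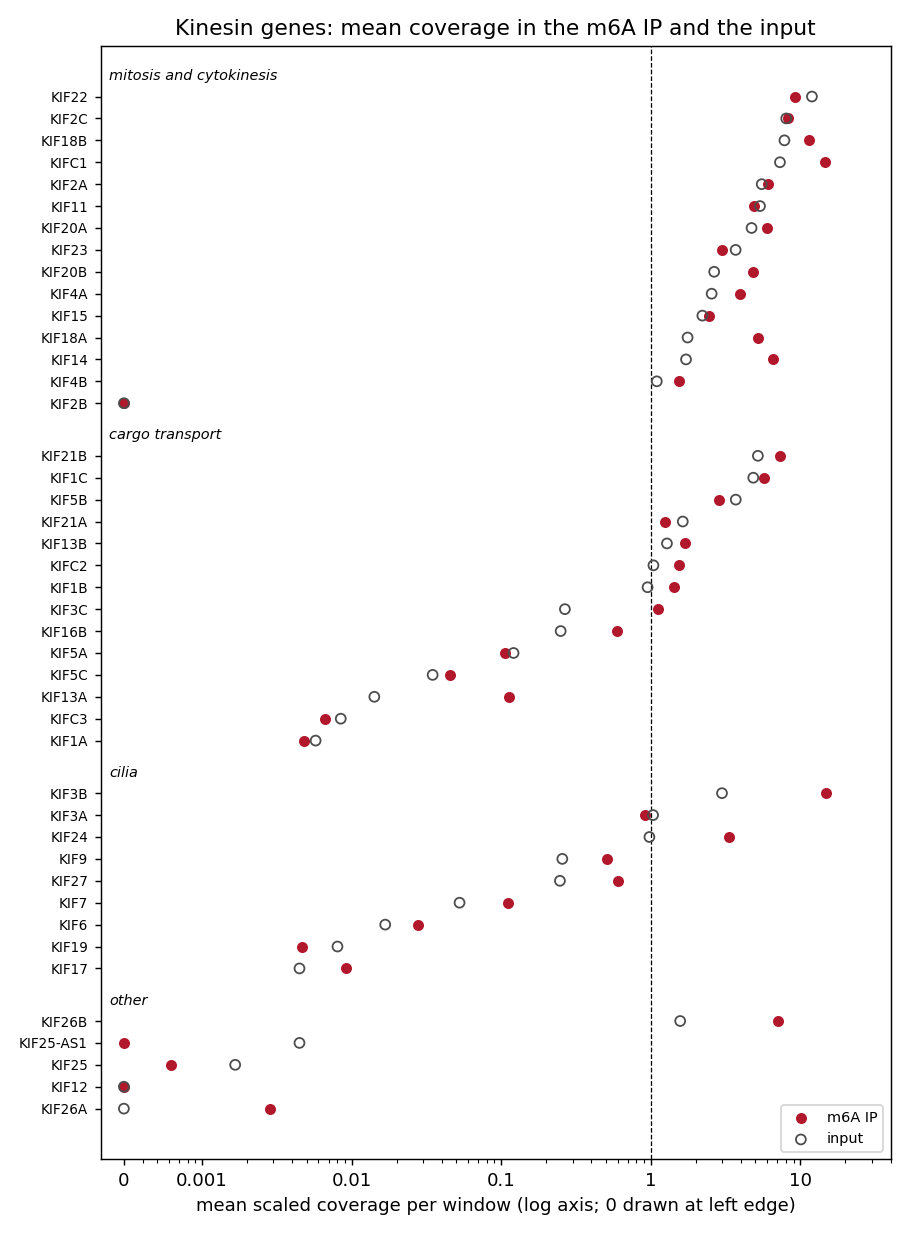
Mean scaled coverage of each of the 43 names in the m6A IP (filled points) and in the input (open points), on a log axis with values of 0 drawn at the left edge; names are grouped by role and the dashed line marks the input minimum of 1. All mitotic members but KIF2B lie right of the line, and KIF3B, KIF26B, KIF14 and KIF18A show the widest gaps from input to IP among measured names.

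Methylation-enriched regions were found in 12 of the 23 measured kinesins, a share of 52.2% (exact 95% interval 30.6 to 73.2). Over all 10756 measured genes the share was 44.2%, which lies inside that interval. Kinesin transcripts are long, with a median of 111 windows against 55 in all measured genes, and longer transcripts hold regions more often. When measured genes were sorted by window number into 4 equal groups, 16 kinesins fell in the group with most windows, and 10 of them had a region, where 72.6% of all genes in that group did. In the group below, 2 of 6 kinesins had a region where 56.1% of all genes did, and KIF22, alone in the next group, had none, where 36.7% did. In each of these groups the kinesin share was below that of all genes. With only 16, 6 and 1 kinesins and no interval for each group, no kinesin deficit can be read from this.

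The median gene-level score of the 23 was 2.28 (interval 1.49 to 2.81), and that of all measured genes was 1.81, inside the interval. The score is the highest over all window pairs of a gene, and kinesins have more windows. Scores are not given here at matched length. Scores ran from 5.10 in KIF14, higher than in 96.7% of measured genes, to 0.829 in KIF11. By role, 7 of 14 measured mitotic kinesins had a region, 2 of 6 transport kinesins, and both measured members of the cilia group. The mitotic share of 50% has an interval of 23.0 to 77.0 and the transport share of 33.3% one of 4.33 to 77.7, so these groups could not be told apart at this number of genes.

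**Figure D2:**
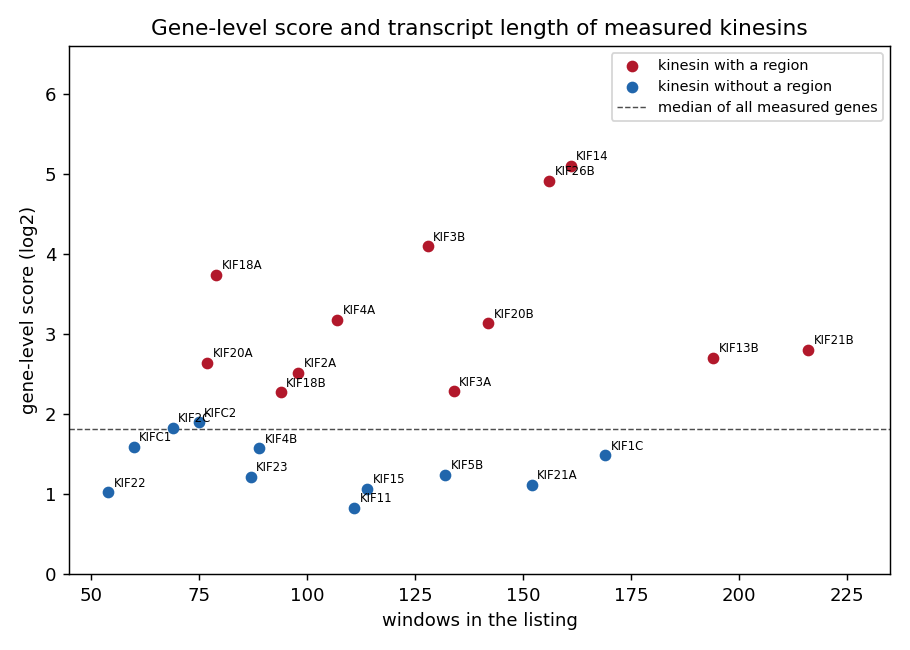
Gene-level score (log2) of the 23 measured kinesins against the number of windows in the listing; red points have a region, blue points have none, and the dashed line is the median of all measured genes at 1.81. Genes of similar length lie far apart, such as KIF14 at 5.10 with 161 windows and KIF1C at 1.49 with 169.

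The highest score of the family lay in a long internal exon. KIF14 had its main region in listed exon 29, an exon of 25 windows. Exons are numbered along the chromosome in this table: the last listed exon was longer than the first in 91.2% of 6861 genes on the plus strand and in 9.01% of 6607 on the minus strand, with strands from the RefSeq promoter table. KIF14 lies on the minus strand, so its exon 29 of 30 is the second from the 5′ end. From window 5 to window 10 of this exon the IP coverage was 53.5, 74.8, 106, 116, 79.97 and 54.6, and the input was 3.38, 3.69, 2.58, 2.70, 4.98 and 5.78. The IP formed 1 tall hump, and the input stayed between 2.58 and 5.78. The region spanned windows 2 to 13 and its peak scored 5.14 (4.57 to 5.72). The interval sets IP and input at opposite ends of their exact 95% Poisson limits. A second KIF14 region, in the 3′ terminal exon, peaked at 47.6 in the IP and 4.97 in the input, a score of 3.18 (2.62 to 3.75).

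KIF3B was enriched at both ends of its transcript. In exon 2, also the second from the 5′ end and 30 windows long, the first region covered windows 5 to 9, with 43.9, 68.9, 80.8, 84.1 and 41.3 in the IP and 1.88, 1.47, 1.88, 5.37 and 4.90 in the input. The second covered windows 20 to 23 of the same exon, with 59.96, 129, 98.9 and 34.2 in the IP and 2.63, 5.80, 6.10 and 3.43 in the input. Between them, at window 14, IP was 1.59 and input 1.21, so the IP fell back close to the input between the humps. Their peaks scored 4.10 (3.46 to 4.72) and 3.53 (3.06 to 4.01). Exon 9, the 3′ terminal exon of 76 windows, held another pair of regions near its far end, at 89.2 in the IP against 10.5 in the input and at 35.8 against 2.13, with scores of 2.25 and 2.83. KIF3B had 4 regions, the most of any measured kinesin.

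KIF20B, a motor of late cytokinesis, carried all 3 of its regions in exon 20, which has 25 windows. Their peaks had 22.0, 18.2 and 30.8 in the IP and 1.66, 2.58 and 3.08 in the input, and scored 3.29 (2.51 to 4.04), 2.61 (1.85 to 3.35) and 3.15 (2.48 to 3.81). IP coverage over the whole exon averaged 16.9 against 3.66 in the input. The regions are thus 3 crests of an exon raised over most of its length. KIF18A had 1 region, in listed exon 4, the fourteenth of 17 from the 5′ end. Its 9 windows had 74.3, 75.1, 36.0, 23.0, 21.4, 26.3, 19.8, 9.28 and 3.36 in the IP and 4.87, 4.55, 2.82, 2.46, 3.05, 4.49, 4.08, 3.15 and 1.67 in the input. The signal was highest at the edge nearer the 3′ end and declined toward the other, and the peak scored 3.79 (3.26 to 4.33).

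Not every long internal exon held a region. The measured kinesins held 9 internal exons of 11 or more windows in 8 genes, and 3 of the 9 held regions, those of KIF14, KIF3B and KIF20B. Of the other 6, exon 3 of KIF26B had no input coverage and exon 12 of KIF26B had 1 enriched window. Exon 2 of KIF13B, with 14 windows, averaged 5.36 in the IP and 2.19 in the input and reached 1.97, the nearest to the threshold of those with no enriched window. Exon 7 of KIFC1, with 16 windows, averaged 29.6 in the IP and 10.2 in the input, yet no window passed a score of 1.62. Exon 3 of KIF18B, with 12 windows, averaged 35.7 in the IP and 15.1 in the input and reached 1.94. Exon 22 of KIF1C, with 13 windows, reached 1.17.

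In all, 33 of 215 windows in these long internal exons were enriched, a share of 15.3% (10.8 to 20.9), where the share over all measured genes was 22%. Exons 12 and 3 of KIF26B, with 69 and 11 of these windows, held 1 and 0 enriched windows. This 1 partly covered gene thus lowers the kinesin share, and no kinesin deficit can be read from it. Terminal exons had 47 of 938 windows enriched, 5.01% (3.70 to 6.61), against 7.76% in all measured genes. The single exon of KIF4B had none (0) of 89, against 6.33% of windows in single-exon transcripts of all measured genes. In internal exons of 6 to 10 windows the share was 9.89% (4.62 to 17.9) against 5.29% in all measured genes. Of the 9 enriched windows behind it, 7 lay in exon 4 of KIF18A and 2 in exon 16 of KIF3A. In short internal exons of up to 5 windows, which make up 50.6% of all kinesin windows, none (0) of 1365 windows was enriched, which allows a share of up to 0.220% by a limit of 3 windows and up to 0.270% by the exact 95% interval, and over all measured genes the share was 0.0797%. Median input in these short exons was 1.92, and 3.08 in the long ones, and the part of this difference in the contrast was not tested. Over all 2698 kinesin windows 3.30% were enriched, and 5.75% over all measured genes. Neighbouring windows overlap, so these intervals are too narrow.

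**Figure D3:**
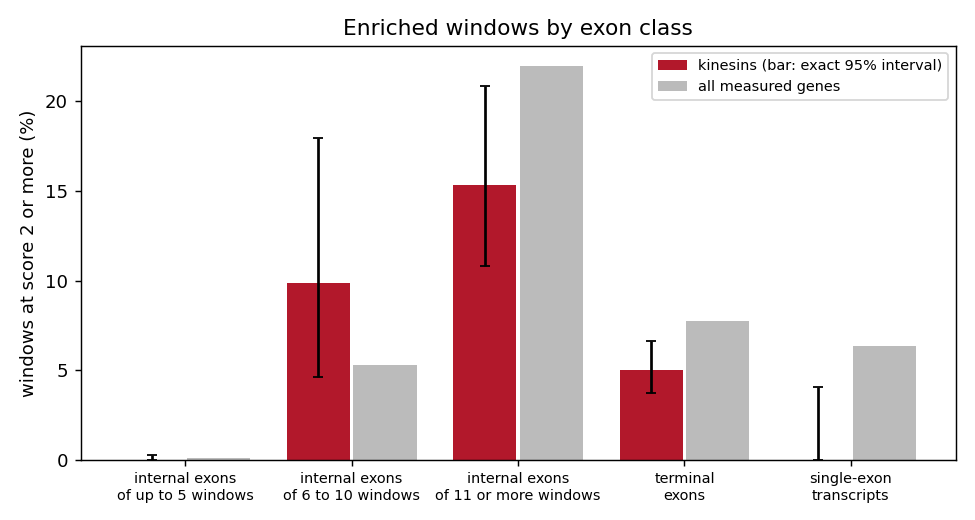
Share of windows at a score of 2 or more by exon class, in measured kinesins (red, with exact 95% intervals) and in all measured genes (grey). Both sets have almost no enriched windows in internal exons of up to 5 windows, and the kinesin share is highest, at 15.3%, in internal exons of 11 or more windows.

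**Figure D4:**
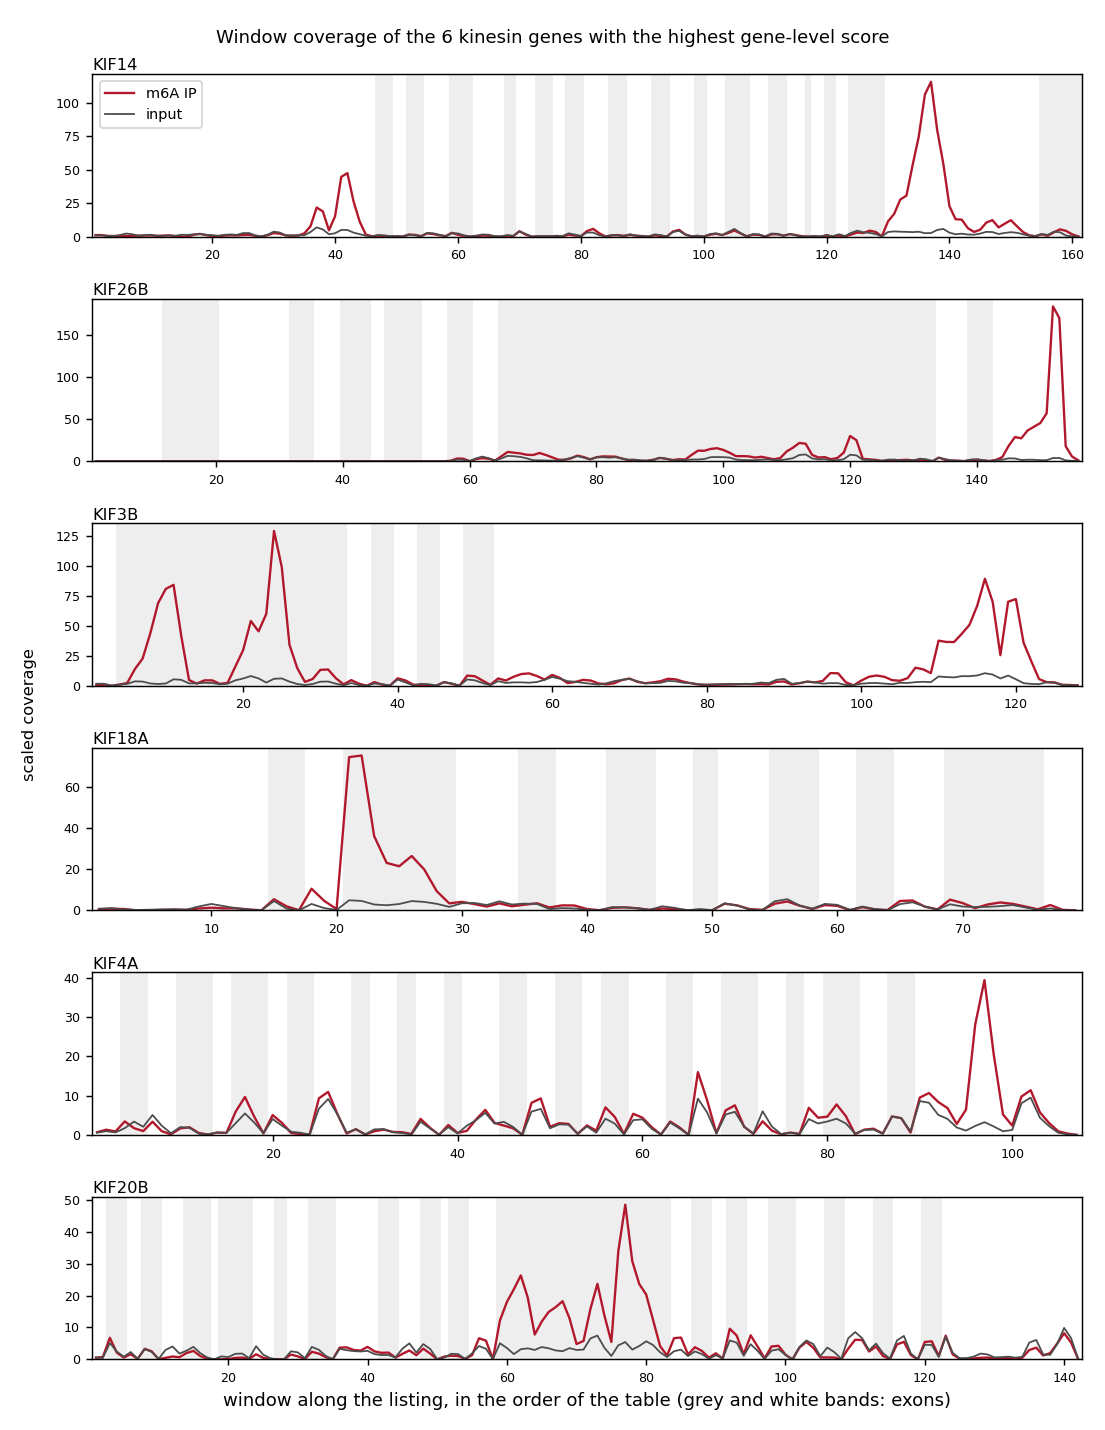
Scaled coverage of the m6A IP (red) and the input (grey line) in each window of the 6 kinesin genes with the highest gene-level score, in the order of the table; grey and white bands are exons and each panel has its own vertical scale. The IP rises in a few humps that the input does not match in height, within 1 internal exon in KIF18A and KIF20B, in an internal and a terminal exon in KIF14 and KIF3B, and in the last exon in KIF4A and KIF26B.

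Of the 18 peaks in measured kinesins 10 lay in a terminal exon and 8 in an internal one, 44.4% (21.5 to 69.2), against 24.7% of the 7440 peaks of all measured genes. That background lies inside the interval, and 61.9% of kinesin windows were internal against 43.1% of all. The 18 peaks come from 12 genes, and 3 of the internal peaks share exon 20 of KIF20B, so this interval is too narrow. The strand was known for 7 of the 10 terminal peaks, and all 7 were in the 3′ terminal exon. So were 91.9% of the 3870 terminal peaks of known strand in all measured genes. In 7 of the 10 the peak window started within 500 nt of the inner edge, where the exon joins the rest of the transcript, as did 60.7% of terminal peaks of all measured genes. The stop codon of many genes lies in this stretch, but its position was not determined here.

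KIF4A, a chromokinesin that sets the length of the midzone with PRC1, held a narrow region there. Windows 6 to 10 of its last exon had 6.43, 28.1, 39.4, 20.5 and 5.21 in the IP and 1.09, 2.27, 3.25, 2.13 and 0.928 in the input, a score of 3.23 (2.59 to 3.86) at window 8, which starts 350 nt inside the exon. On either side, at windows 2 and 13, the IP was 10.7 and 11.4 and the input 8.18 and 9.49, nearly level. KIF4B, the copy, had no region. KIF20A peaked in its last exon at 23.0 in the IP and 3.68 in the input, a score of 2.66 (1.98 to 3.34), 300 nt from the inner edge. The highest IP of this exon, 56.8, lay in window 5, where the input was 11.8.

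KIF2A, KIF18B and KIF13B also peaked near the inner edge, at 400, 150 and 300 nt. KIF2A had 39.6 in the IP and 10.3 in the input there, KIF18B 30.8 and 6.11, and KIF13B 11.8 and 1.03. Their scores were 2.61 (2.13 to 3.10), 2.30 (1.72 to 2.88) and 2.81 (1.89 to 3.63), so the lower limits for KIF18B and KIF13B fall below the threshold. KIF21B and the distal pair of KIF3B stood apart from these. KIF21B peaked 2700 nt inside an exon of 97 windows, at 104 in the IP and 14.4 in the input, a score of 2.84 (2.47 to 3.22). A lower hump nearer the inner edge, at windows 79 to 81, had 45.8, 73.0 and 36.5 in the IP. Its input was 13.1, 17.9 and 10.4, and only window 80 passed the threshold, at 2.03, so it formed no region. The KIF3B pair lay 3150 and 3400 nt inside, and 3.56% of terminal peaks of all measured genes lay more than 3000 nt from the inner edge.

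KIF26B, a kinesin that signals without moving along microtubules, gave the second highest score from a transcript covered only in part. Of its 15 listed exons 9 had no input coverage at all and 8 had no IP coverage. Input coverage began at exon 10, and of the 9 exons before it only exon 3 had any IP coverage, with a mean of 0.0367. In exon 15, the last, windows 8 to 12 had 45.4, 57.1, 184, 170 and 17.8 in the IP and 1.12, 1.19, 3.80, 3.85 and 0.944 in the input, with a score of 4.98 (4.47 to 5.49) at window 10. The IP value of 184 was the highest of any kinesin window. Exon 12, with 69 windows, averaged 6.27 in the IP and 2.73 in the input, and 1 of its windows reached 2.13. Without KIF26B, 11 of 22 measured kinesins had a region.

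KIF3A had a short region, in listed exon 16, the second from the 5′ end. Windows 2 and 3 had 8.49 and 8.08 in the IP and 1.51 and 1.42 in the input, and the peak scored 2.29 (1.35 to 3.17). About 87.6 IP reads and 24.5 input reads lie behind this peak, the fewest IP reads of the 18 peaks.

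The 11 measured kinesins without a region included long and well covered transcripts. KIF1C, KIF21A and KIF5B had the most windows of this set, with 169, 152 and 132. The terminal exon of KIF1C has 99 windows, and its IP reached 73.2 in the window where the input was also highest, at 40.1. The IP stood further above the input in windows 22 and 23 of that exon, at 21.8 and 19.5 in the IP and 6.36 and 6.90 in the input, where the score reached 1.61. KIF21A peaked at 6.18 in the IP against 5.93 in the input, and KIF5B at 14.3 against 14.8. Their gene-level scores were 1.49, 1.12 and 1.24. KIF11 had the lowest score of the 23 measured kinesins, with 111 windows, a terminal exon of 35 windows and no window at 0 in the input. Its highest IP window had 19.8 against 13.5 in the input. At a threshold of 1, where 71.4% of all measured genes had a region, KIF11 was the only one of the 23 without one.

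KIF24, KIF1B and KIF3C, below the minimum, also had regions, and they are counted apart. Of all genes below the minimum 5.17% had a region. KIF24 had 3 regions, at 30.9, 20.03 and 16.5 in the IP against 1.59, 0.814 and 0.591 in the input, with the first and the last in exon 3, an internal exon of 45 windows. KIF1B had a pair in its last exon, at 15.4 and 9.73 in the IP against 1.21 and 0.658 in the input. KIF3C had 1, at 7.89 against 0.262, which rests on about 4.25 input reads.

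The number of kinesins with a region moved with the call, as did the share of all genes past the minimum. It was 22 of 23 at a threshold of 1, where the share was 71.4%, and 6 at a threshold of 3, where it was 26%. Asking for at least 4 windows left 8 kinesins, against 31% of all genes. A pseudocount of 0.1 gave 14, against 51.8%, and a pseudocount of 5 gave 7, against 33.9%. Without division by the gene median the count was 10, against 45.5%. An input minimum of 5 left 3 of 7 kinesins with a region, against 34.1%, and a minimum of 0.5 gave 14 of 25, against 43.7%.

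Over the whole gene, the log2 ratio of mean IP to mean input, with 1 added to each, had a median of 0.27 in the 23 measured kinesins and 0.35 in all measured genes. The ratio was above the median of all genes in 9 of the 23. It was highest in KIF3B, at 1.98, then in KIF26B at 1.65, KIF14 at 1.47 and KIF18A at 1.17, which are also the 4 with the highest gene-level scores. Both values come from the same windows, so this overlap is no separate evidence. The ratio was lowest in KIF22, at -0.35. The scale between the libraries is the authors', so the sign of a single ratio has no absolute meaning.

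Partners of the kinesins were scored in the same way. Among 14 cargo partners, 11 passed the minimum and 4 held regions. Their median gene-level score was 1.81. TRAK1 and TRAK2, the adaptors that link kinesin-1 to mitochondria, led at 5.76 and 4.77, and the light chain gene KLC2 was lowest at 0.75. All 18 spindle and midzone partners passed, 7 held regions, and the median was 1.56. TPX2, which activates Aurora A on the spindle, had 3.86, the microtubule polymerase CKAP5 3.47 and the kinase PLK1 0.83. Of 23 dynein and dynactin genes, the motor that runs the other way, 20 passed and 9 held regions. Their median was 1.92, from DCTN5 at 3.55 and NDE1 at 3.44 to DYNLT1 at 0.47. The shares of 36.4%, 38.9% and 45% lie near the 44.2% of all measured genes. These partner transcripts are shorter than the kinesins, with medians of 92, 70.5 and 68.5 windows against 111. All 3 medians lie above the 55 windows of all measured genes.

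CENPE, a kinesin of the kinetochore whose name does not begin with KIF, belongs to the spindle list. It had 5.77 in the IP and 2.94 in the input, with 1 region and a gene-level score of 2.56.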

How the data were processed

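The authors deposited 1 table of windows. Per the file headers it gives coverage of input and IP, a signal deposited by the authors after scaling each library (factor: not given in these sources), the gene medians of that coverage, and a window score. TopHat 1.1.3 and the build hg19 come from the submitters' processing notes, and the labels' protocols name strand-specific dUTP libraries. The program that made the coverage, the annotation and any use of strand in counting are not given in the sources, so overlapping genes may share reads. The deposited score is a log2 value: recomputing it from coverage and medians differed by at most 1.64e-14.

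Whole multiples of 1 step (within 0.01 step) made up 100% of the coverage values in the IP and in the input. Windows holding little coverage most often had 37 steps, taken as 1 read of 36 nt plus 1 base. Totals of 73 steps, 1 extra base for 2 reads, occurred in 300 IP and 244 input windows, and totals of 74 steps, 1 extra base for each of 2 reads, in 373 IP and 367 input windows. A scaled coverage of 1 over a window thus equals about 10.3 IP reads or 16.2 input reads. If the extra base is added at every change in coverage, deep windows are overstated by up to 2-fold, so counting intervals used 50% of the read equivalents. This widens the intervals only. Scores, region calls and read numbers rest on the coverage as deposited and were not corrected for such an overstatement. The total came to about 58.5 M reads in the IP and 51.7 M in the input.

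Listings, scores, regions and exact Clopper-Pearson and Poisson intervals (95%) used scipy 1.17.1, pandas 2.3.3 and numpy 2.4.6 under Python 3.11.15, and matplotlib 3.10.9 drew the figures. Names with 1 window (95) were left out of the scored genes. Region calling was first run on simulated counts with planted regions. There windows were drawn independently, and both libraries had the same number of reads per unit of coverage, unlike here. The simulation thus gives no error rate for these data. Every measured kinesin was named, with window values for the 6 highest with a region and the 3 longest without, and from each partner list the 2 highest and the lowest member. CENPE, the promoter motifs and the window values of KIF11, KIF20A and KIF3A were singled out after values were seen. The members and lists were chosen with earlier results of these data known. Alternatives were other thresholds, run lengths, pseudocounts, centring, input minima and listings. Sequences come from RefSeq windows on GRCh38.p14, where 35 of 43 names matched.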

Additional observations from a re-analysis of the deposited data

How the results depend on the processing

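With 1 library in each group, the precision rests on read numbers alone and no replicate could be left out. No paired analysis was possible because each group has 1 library and no result comes from a test. The count of 12 measured kinesins with a region was 7 with a pseudocount of 5, 22 at a threshold of 1, 6 at a threshold of 3 and 3 of 7 at an input minimum of 5. The shares of all genes past the minimum under these settings were 33.9%, 71.4%, 26% and 34.1%. It lay between 8 and 15 under the other alternatives. The 18 regions became 51 at a threshold of 1, 8 at a threshold of 3 and 3 at an input minimum of 5. All 43 names count as measured with no input minimum and 7 do at a minimum of 5. At that minimum none (0%) of the 3 peaks was internal. The median gene-level score of 2.28 became 1.43 with a pseudocount of 5. KIF14, KIF18A, KIF20B, KIF26B and KIF3B kept a region under all 8 alternatives that change the score, the call or the listing, and KIF11 had none under any of them. KIF4A lost its region only when runs of at least 4 windows were asked for. KIF2A and KIF3A lost theirs without centring, at gene-level scores of 1.75 and 1.91. KIF18B lost its region under 4 of the 8, among them the first listing. KIF26B stood above KIF14 with a pseudocount of 5 (4.26 against 3.98) and without centring (5.21 against 4.94). The counts without KIF4B, 12 of 22, and without KIF26B, 11 of 22, were chosen after seeing the data. Depth limits the calls most in KIF3A, KIF13B and the names below the minimum, whose peaks rest on few input reads.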
